A study of Mus musculus and Mus spretus with 72 samples.

Results

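Homeobox genes and their paired-box relatives were followed on 108 probes of 96 gene symbols, out of 22089 probes on the array and 14386 gene symbols that stand alone on a probe. Members were the probes with a single gene symbol that begins with Hox, a letter from a to d and a digit, or with Dlx, Lhx, Nkx, Pax, Pou, Msx, Meis, Pbx or the Six-family prefix and a digit, a rule on names and not on values. By family there were 12 probes of Hoxa, 9 of Hoxb, 7 of Hoxc, 10 of Hoxd, 7 of Dlx, 12 of Lhx, 5 of the Six-family, 14 of Nkx, 9 of Pax, 15 of Pou, 3 of Msx, 3 of Meis and 2 of Pbx. Of the symbols, 12 had a pair of probes, named probe A and probe B. The rule also takes in 4 long non-coding RNAs (Hoxa11os, Hoxd3os1, Lhx1os and Dlx6os2) and Pou2af1, a coactivator of lymphocytes that is not a homeobox protein.

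Homeobox proteins bind DNA through a homeodomain and set the identity of body regions, organs and cell types during development. The Hox genes lie in clusters whose gene order follows the body axis, and Meis and Pbx proteins bind DNA together with Hox proteins. Pou proteins add a second DNA-binding domain, Lhx proteins carry LIM domains, Six-family proteins work with Eya cofactors, and Pax proteins bind DNA through a paired domain. Polycomb complexes keep many of these genes silent in adult cells, while the kidney and parts of the brain go on using some of them.

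On each of 72 arrays the total RNA of a single male was compared with pooled RNA from the same tissue of 9 C57BL6 mice, a laboratory strain whose RNA lies on every array. For each tissue (brain, liver/kidney and testis) there were 6 arrays of dom (Mus musculus domesticus), 6 of mus (M. m. musculus), 6 of ssp (M. musculus of a sub-species that the labels leave unnamed), 3 of cas (M. m. castaneus) and 3 of spretus (Mus spretus), all of about 12 weeks of age. The first 4 are called the musculus groups. Liver and kidney share 1 label that does not say how they were joined, and array mus 08 of brain carries a channel label of domesticus but stayed in mus, as its title says. All values are ratios to the pool, so neither the level of a gene nor its order among genes can be read from them. They are taken as log2 of sample over pool, a base and a direction that the sources used here do not state, and were any of this inverted all signs would turn together. In a bulk tissue, fewer cells of a type and less RNA per cell cannot be told apart.

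Arrays had values for 42825 to 44832 spots, and duplicate spots correlated within an array with a median r of 0.559. The arrays fell into 4 sets by which spots were empty, and these sets overlap with the groups. In liver/kidney all dom, mus and ssp arrays lay in set 1, all cas arrays and spretus 01 and 03 in set 2, and spretus 02 alone in set 3. In brain and testis all spretus arrays lay in set 2, with 2 mus arrays and 2 or 3 cas arrays (in brain also 3 ssp arrays). Differences within a set are therefore given beside the pooled ones. A probe was tested where every group had at least 2 values, which left 106 members for brain, 106 for liver/kidney and 107 for testis. A member counted as changed at an adjusted p under 0.05 over all probes of the tissue by limma.

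The group differences of the members were few, and their share was close to that of all probes in most comparisons. Between spretus and the musculus groups 4 of 106 members changed in brain (3.77%, against 3.95% of all probes), 8 of 106 in liver/kidney (7.55%, against 7.49%) and 5 of 107 in testis (4.67%, against 9.42%). For mus minus dom 3 members rose in liver/kidney (2.83%, against 0.591%), while 0 changed in brain (0.223% of all probes) and 0 in testis (0% of all probes). For cas against dom and mus, equally weighted, 2 members rose in liver/kidney (1.89%, against 1.11%) and 0 changed in brain (0.0097%) and in testis (0.0193%). For ssp against dom, mus and cas 1 member rose in brain (0.943%, against 0.097%) and 0 changed in liver/kidney (0.0436%) and in testis (0%). Where limma called 0 members, some had an unadjusted p under 0.05, given here with the share of members against that of all probes. Mus minus dom had 11 in brain (10.4%, against 9.33%) and 7 in testis (6.54%, against 6.59%). Cas had 16 in brain (15.1%, against 12%) and 10 in testis (9.35%, against 6.25%). Ssp had 11 in liver/kidney (10.4%, against 10.6%) and 1 in testis (0.935%, against 4.86%). In all, 19 member probes passed in at least 1 of these 12 comparisons. The share of all probes that did so is not given here, so this total is not a result about the family.

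**Figure D1:**
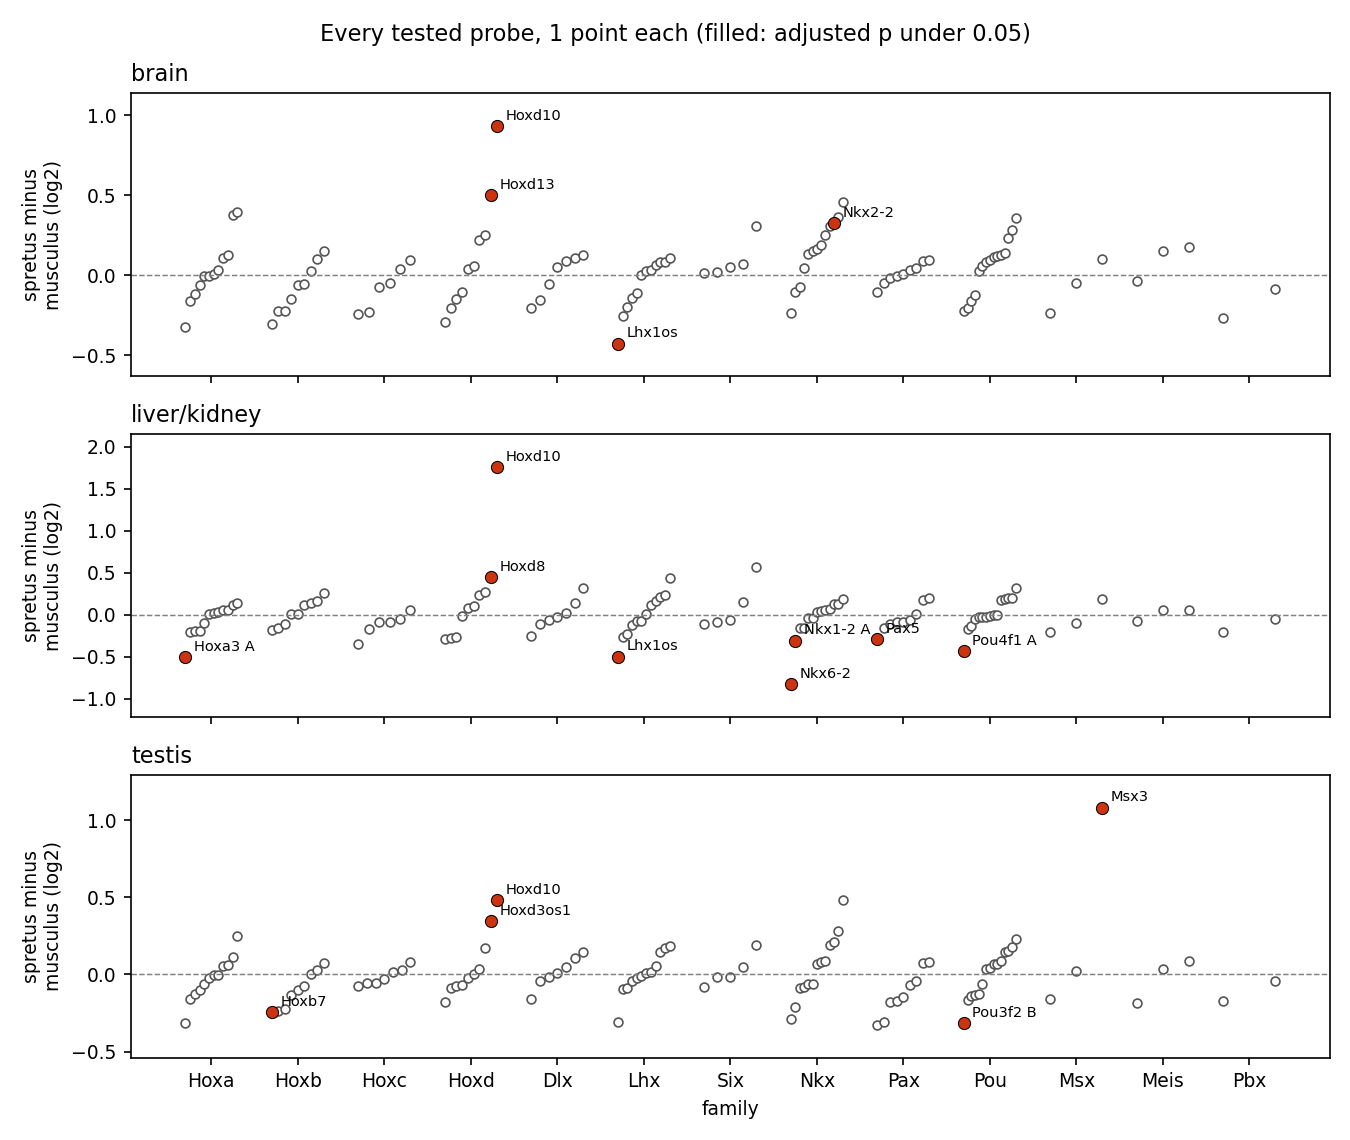
Difference between spretus and the musculus groups (log2, vertical axis) for every tested probe, 1 point each, by family (horizontal axis) in brain, liver/kidney and testis; the vertical scale differs between panels. Filled red points passed an adjusted p under 0.05; Hoxd10 in brain (0.93) and liver/kidney (1.76) and Msx3 in testis (1.08) stand above all other members.

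Hoxd10, a posterior Hox gene that patterns limb and lumbar spinal cord, was higher in spretus in all 3 tissues. It was the only member called in 3 tissues, and Lhx1os was the only other one called in more than 1. The share of all probes called in several tissues is not given here. The Hoxd10 call in testis was lost when a single spretus array was left out. In liver/kidney the 3 spretus arrays read 1.32, 1.08 and 0.98 on the log2 scale. The dom arrays ran from -0.84 to -0.50 (median -0.70) and the mus arrays from -1.19 to -0.76 (median -1.10). The ssp arrays ran from -0.99 to -0.02 (median -0.82), and cas read -0.39, -0.20 and 0.18. No spretus array overlapped with a musculus array, dom and mus lay below the pool on every array, and spretus lay above it. The difference between spretus and the musculus groups was 1.76 ± 0.14 (SE), a 3.39-fold ratio, with an adjusted p of 8.21e-08 by limma. In set 2, where 2 spretus arrays meet 3 cas arrays, it was 1.28 ± 0.20 with an adjusted p of 0.244 by limma. In that comparison 0 of 105 members were called (0% of all probes). There 8 members had an unadjusted p under 0.05, as did 1550 of all 20552 probes. Given the sets as a random block, the pooled difference stayed at 1.76 with an adjusted p of 6.34e-05. No spretus array shares a set with dom, mus or ssp in this tissue, so that fit cannot tell set and species apart there.

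In brain Hoxd10 read 0.81, 1.02 and 0.69 in spretus. The highest musculus array was ssp 03 at 0.59, and the group means ± SD were -0.20 ± 0.25 in dom, -0.16 ± 0.10 in mus, -0.15 ± 0.15 in cas and 0.13 ± 0.27 in ssp. Spretus again did not overlap with any musculus array, and the difference was 0.93 ± 0.12 (adjusted p = 9.16e-05). Within set 2 it was 0.73 ± 0.12 against 3 ssp arrays (adjusted p = 0.0367), the only one of 106 members called in that comparison (0.943%, against 0.513% of all probes). Against 2 cas and against 2 mus arrays of the same set it was 0.90 ± 0.13 each, with adjusted p of 0.0791 and 0.0712. In testis the spretus arrays read 0.89, 0.26 and 0.09, while mus 08 reached 0.47, so the groups overlapped. That difference of 0.48 ± 0.13 (adjusted p = 0.0216) was 0.24 without spretus 01 (adjusted p = 0.276) and 0.30 with the sets as a term (adjusted p = 0.448).

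Duplicate spots of Hoxd10 correlated over the 24 arrays with r of 0.939 for brain, 0.976 for liver/kidney and 0.564 for testis. In runs that left out 1 array each, the calls in brain and liver/kidney were kept in 24 of 24 runs, with differences from 0.84 to 1.01 and from 1.66 to 1.83. The species difference itself was larger in liver/kidney than in testis by 1.28 ± 0.19 (adjusted p = 1.64e-06) and smaller in brain than in liver/kidney by 0.83 ± 0.19 (adjusted p = 0.00986), in 1 limma fit over the 3 tissues that took arrays of an animal as correlated. The second of these was lost without animal spretus 01 (adjusted p = 0.0663), and both were kept with quantile normalisation. Arrays with the same group and number in their titles were taken as those of an animal, and the fitted correlation between them was 0.020. Among the 106 members tested in all tissues, 4 differed between liver/kidney and testis (5.98% of all probes did), 3 between brain and liver/kidney (1.9%) and 3 between brain and testis (2.96%).

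**Figure D2:**
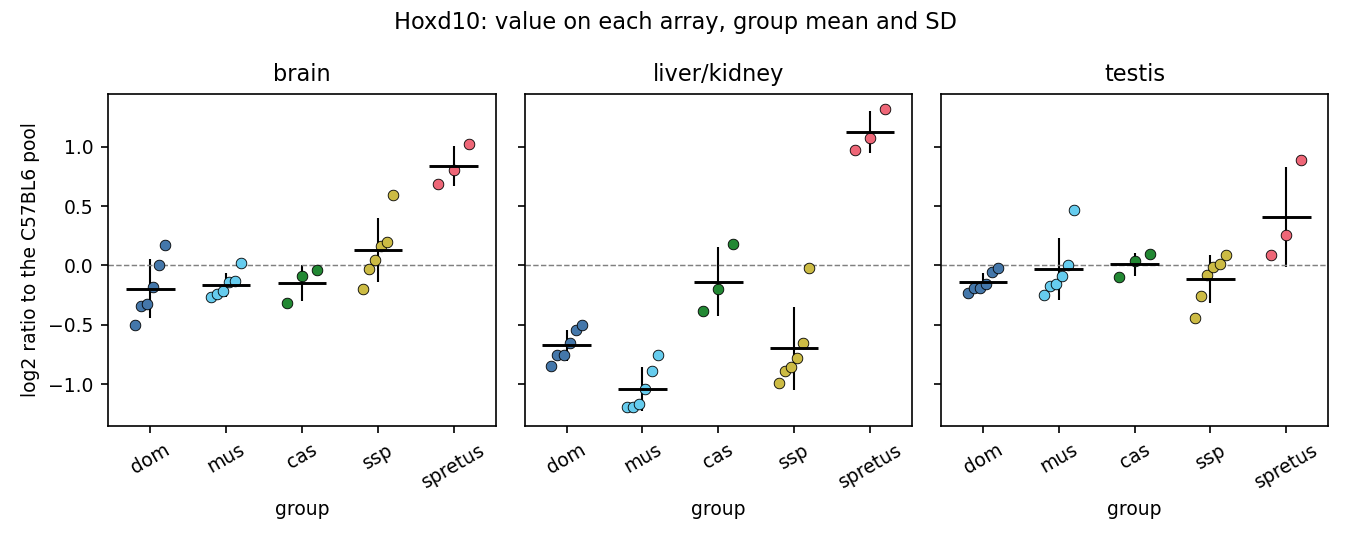
Hoxd10 on each array (points, log2 ratio to the C57BL6 pool) by group in brain, liver/kidney and testis, with the group mean (horizontal line) and SD (vertical line). The spretus arrays lie above every musculus array in brain and liver/kidney, and in testis they overlap with mus 08 at 0.47.

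Hoxd10 also separated the musculus groups in liver/kidney. Cas was higher than the mean of dom and mus by 0.72 ± 0.15 (adjusted p = 0.0190), with no overlap between its 3 arrays and the 12 of dom and mus. Without cas 03 the difference was 0.56 (adjusted p = 0.124), and with the sets as a random block the adjusted p was 1.00. Cas shares no set with dom or mus in this tissue, so set and group cannot be told apart there. Within set 1, mus was lower than dom by 0.37 on the log2 scale (SE 0.13, adjusted p = 0.308), which did not pass.

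The other probes of the Hoxd cluster gave smaller differences. In RefSeq order the genes run Hoxd13, Hoxd12, Hoxd11, Hoxd10, Hoxd9, Hoxd8, Hoxd3os1, Hoxd3, Hoxd4 and Hoxd1, and the annotated spans of Hoxd11 and Hoxd10, of Hoxd3os1 and Hoxd3, and of Hoxd3 and Hoxd4 overlap. In liver/kidney the neighbours of Hoxd10 stood at -0.27 ± 0.11 (Hoxd11, adjusted p = 0.168) and 0.24 ± 0.09 (Hoxd9). In brain the same neighbours were at -0.20 and 0.04, and in testis at -0.08 and 0.04, all below the threshold. Hoxd8, a more anterior Hox gene, passed in liver/kidney at 0.45 ± 0.10 (adjusted p = 0.00535), with spretus at 0.71, 0.35 and 0.25. One cas array (0.44) lay above 2 of these, and without spretus 01 the difference was 0.31 (adjusted p = 0.0556). Hoxd13, which patterns digits and genital tract, passed in brain at 0.50 ± 0.12 (adjusted p = 0.0169), but its spretus arrays read 0.05, 0.89 and 0.34, the first of them inside the range of the musculus arrays. Without spretus 02 the Hoxd13 difference was 0.27 (adjusted p = 0.266), the call was also lost without spretus 03, and its spots gave 0.78 and 0.23 when read alone.

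Hoxd3os1, a non-coding RNA on the strand opposite to Hoxd3, was higher in spretus testis. The spretus arrays read 0.36, 0.37 and 0.44. The musculus arrays reached 0.41 (dom 03) and group means ran from -0.06 in cas to 0.18 in dom, so 1 array overlapped. The difference of 0.34 ± 0.08 (adjusted p = 0.00526) was kept in 24 of 24 runs that left out 1 array. It was 0.25 in brain and 0.27 in liver/kidney, where it did not pass, and Hoxd3 itself stood at -0.09 in testis. Against cas in set 2 the Hoxd3os1 difference in testis was 0.45 ± 0.08 (adjusted p = 0.0507). Quantile normalisation ended the call (adjusted p = 0.182).

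**Figure D3:**
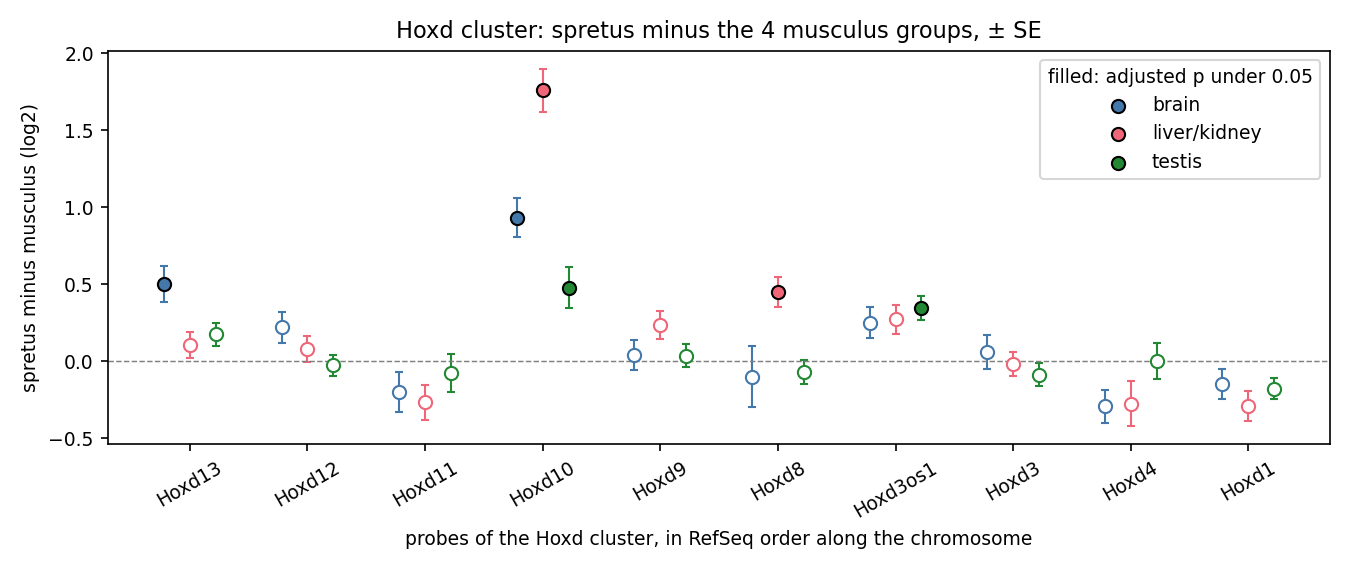
Difference between spretus and the musculus groups (log2, ± SE) for the 10 probes of the Hoxd cluster in RefSeq order, by tissue; filled points passed an adjusted p under 0.05. Hoxd10 reaches 1.76 in liver/kidney while its neighbours Hoxd11 and Hoxd9 stand at -0.27 and 0.24.

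Promoters of 4 genes are shown because their group differences stayed called in every run that left out 1 array in at least 1 tissue: Hoxd10, Msx3, Hoxd3os1 and Hoxa11os. Lhx6, whose probe A did the same, has 3 promoters in the table and is not shown. The sequences are RefSeq's (GRCm38.p6), 250 bases before to 50 after an annotated start, written 5′ to 3′ on the gene's own strand. For Hoxd10 the window lies inside the annotated span of the gene, which begins upstream at base 74684273. The Hoxa11os window lies inside the annotated span of Hoxa11, and the Hoxd3os1 window inside that of Hoxd3. Capitals mark CG dinucleotides, the sites of DNA methylation, whose density is a known feature of promoters that Polycomb binds.
Hoxd10 (chr2:74691641-74691940, plus strand): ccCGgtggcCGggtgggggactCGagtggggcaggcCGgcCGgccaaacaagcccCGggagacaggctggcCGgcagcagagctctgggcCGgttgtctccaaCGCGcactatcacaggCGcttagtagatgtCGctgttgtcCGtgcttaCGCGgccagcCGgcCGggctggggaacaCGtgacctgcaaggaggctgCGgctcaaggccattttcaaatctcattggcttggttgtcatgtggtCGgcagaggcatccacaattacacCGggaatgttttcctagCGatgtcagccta
Msx3 (chr7:140049039-140049338, minus strand): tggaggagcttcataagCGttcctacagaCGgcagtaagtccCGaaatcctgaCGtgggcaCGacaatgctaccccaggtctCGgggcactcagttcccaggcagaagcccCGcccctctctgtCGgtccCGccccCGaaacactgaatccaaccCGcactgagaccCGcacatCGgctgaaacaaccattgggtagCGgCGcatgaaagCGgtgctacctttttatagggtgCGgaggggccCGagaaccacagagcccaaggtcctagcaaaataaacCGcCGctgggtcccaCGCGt
Hoxd3os1 (chr2:74716081-74716380, minus strand): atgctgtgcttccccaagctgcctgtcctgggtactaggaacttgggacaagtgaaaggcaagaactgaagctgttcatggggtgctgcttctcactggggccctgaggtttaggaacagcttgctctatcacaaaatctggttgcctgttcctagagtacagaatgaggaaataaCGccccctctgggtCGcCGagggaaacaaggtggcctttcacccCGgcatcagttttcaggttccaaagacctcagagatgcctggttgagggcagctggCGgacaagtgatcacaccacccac
Hoxa11os (chr6:52244993-52245292, plus strand): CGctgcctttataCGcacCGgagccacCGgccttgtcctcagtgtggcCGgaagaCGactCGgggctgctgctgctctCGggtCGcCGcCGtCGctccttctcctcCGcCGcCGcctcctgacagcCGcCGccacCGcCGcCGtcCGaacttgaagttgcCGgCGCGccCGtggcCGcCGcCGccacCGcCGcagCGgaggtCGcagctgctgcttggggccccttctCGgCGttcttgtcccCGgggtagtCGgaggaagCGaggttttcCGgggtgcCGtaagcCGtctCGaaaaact
The Hoxd10 promoter holds 22 CG, that of Msx3 22, that of Hoxa11os 41 and that of Hoxd3os1 5. Over all 32851 promoters of the table the median was 7, and over the 82 promoters of members (71 genes matched by gene ID) it was 17. At least 22 CG were found in 23.1% of all promoters, at least 41 in 3.46% and at least 5 in 62.0%. The median member promoter thus held more CG than that of the table as a whole. TATAAA, a core promoter element, was searched on both strands. It was found in Hoxa11os and in Msx3, in both on the strand opposite to the gene and not on its own, and in 13.6% of all promoters and 9.76% of the members' promoters. The homeodomain core TAATTA was in none of the 4 sequences, in 3.66% of the members' promoters and in 5.29% of all. The octamer ATGCAAAT, to which Pou proteins bind, was in 0 of the members' 82 promoters and in 1.74% of all. These matches describe letters only.

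Msx3, a homeobox gene known from the dorsal neural tube, was higher in spretus testis. The spretus arrays read 1.07, 1.44 and 0.76. The dom arrays ran from -0.43 to 0.23 (median -0.04), mus from -0.37 to 0.14 (median -0.05) and ssp from -0.08 to 0.49 (median 0.13), and cas read 0.13, 0.06 and -0.18. No spretus array overlapped with any of the 21 musculus arrays, whose means lay near the pool. The difference was 1.08 ± 0.14, a 2.11-fold ratio (adjusted p = 8.90e-06 by limma), and its spots gave 1.09 and 1.07 when read alone. It was kept in 24 of 24 runs that left out 1 array, between 0.90 and 1.24, and with quantile normalisation it was 0.62 (adjusted p = 0.0145). Within set 2 it was 1.36 ± 0.19 against mus (adjusted p = 0.0209) and 1.08 ± 0.17 against cas (adjusted p = 0.0264). In both comparisons it was the only one of 107 members called (0.935%), where 1.33% and 1.2% of all probes were called.

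In brain and liver/kidney Msx3 did not pass, with spretus means of 0.15 and 0.24 inside the musculus ranges. The species difference was larger in testis than in brain by 0.98 ± 0.17 on the log2 scale (brain minus testis -0.98, adjusted p = 4.73e-05) and than in liver/kidney (-0.89, adjusted p = 0.000203). With quantile normalisation both calls were lost, at -0.55 (adjusted p = 0.0624) and -0.46 (adjusted p = 0.137), and the second was also lost without animal spretus 02 (adjusted p = 0.0694). Msx1 and Msx2, its relatives in limb and face, differed from the musculus groups by -0.23 to 0.02 over the tissues and did not pass. Beside this result, 2 of 8 tested spermatid marker probes fell in spretus testis and 0 rose (Prm1 -0.55, Odf1 -0.35), with a list median of -0.18 against 0.01 over all probes. The mean of that list ran from -0.24 to 0.20 over the spretus arrays and from -0.30 to 0.39 over the others. Of 8 spermatocyte probes Ldhc fell (-1.03), with a list median of 0.04. Of 9 Sertoli cell probes Clu probe B (0.65) and Sox9 (0.30) rose and Clu probe A fell (-0.63), with a list median of 0.0025. Of 10 lymphocyte probes Ighm probe A (0.90) and Ighm probe D (0.26) rose, with a list median of 0.12, and the mean of that list ran from 0.08 to 0.16 over the spretus arrays and from -0.15 to 0.11 over the others. The part of these cells in the Msx3 difference was not tested.

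**Figure D4:**
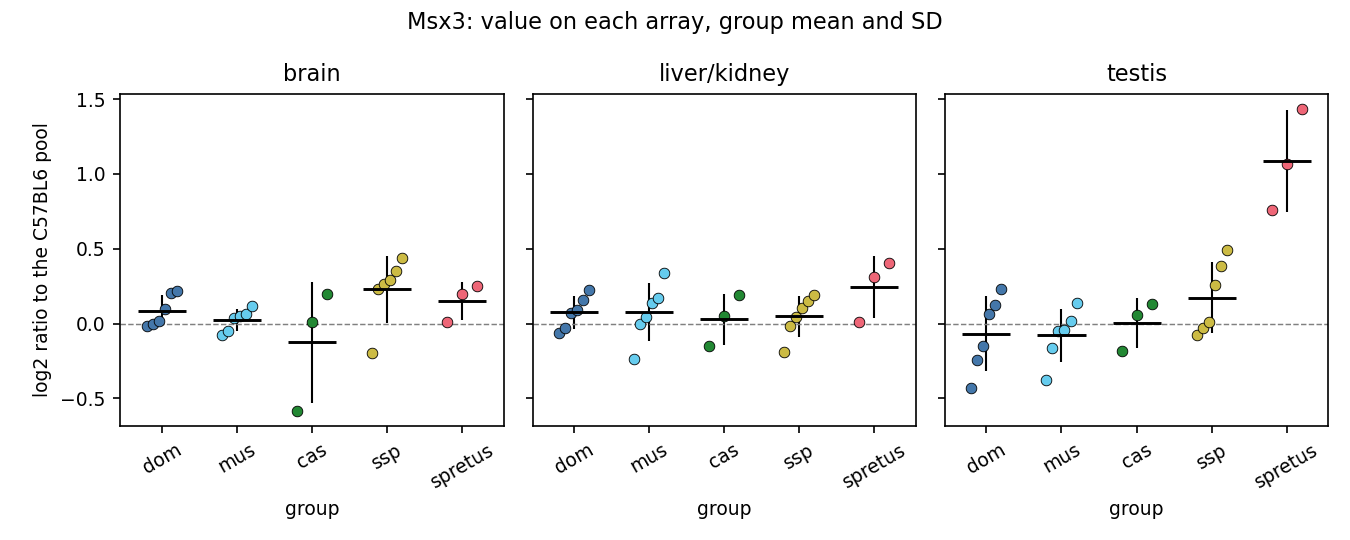
Msx3 on each array (points, log2 ratio to the C57BL6 pool) by group in brain, liver/kidney and testis, with the group mean (horizontal line) and SD (vertical line). The spretus arrays of testis, at 1.07, 1.44 and 0.76, lie above all other arrays of that tissue, and no such gap appears in brain or liver/kidney.

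The other calls in spretus testis were smaller. Probe B of Pou3f2, a Pou factor of neurons, stood at -0.32 ± 0.07 (adjusted p = 0.00424), with spretus arrays at -0.15, -0.54 and -0.23, all below the lowest musculus array. Without spretus 02 this was -0.20 (adjusted p = 0.114), and Pou3f2 probe A gave 0.04 ± 0.20. Hoxb7, a Hox gene used in the ureteric bud of the kidney, fell by 0.25 on the log2 scale (adjusted p = 0.0412). One of its spretus arrays (-0.01) lay above the group means of dom and mus, and the call was lost in 9 of 24 runs that left out 1 array, among them those without spretus 01 or cas 01. Members with a known place in the testis did not pass in spretus: Hoxa4, known from male germ cells, stood at 0.11, Pou5f2, made in spermatids, at 0.08, and Lhx9, needed to form the gonad, at 0.15 and -0.04 on its probes.

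Lhx1os, a non-coding RNA read away from the start of Lhx1, was lower in spretus in brain and liver/kidney. In liver/kidney spretus read -0.14, -0.46 and -0.17, while the 21 musculus arrays all lay above these values and all but 1 lay above 0. The difference was -0.50 ± 0.11 (adjusted p = 0.00522), and -0.40 without spretus 02 (adjusted p = 0.0622). In brain spretus read -0.37, -0.69 and -0.29, cas 03 read -0.37 as well, and the difference of -0.43 ± 0.10 (adjusted p = 0.0135) was -0.31 without spretus 02 (adjusted p = 0.166). Within sets the Lhx1os difference was -0.50 ± 0.12 against ssp in brain (adjusted p = 0.0848) and -0.42 ± 0.15 against cas in liver/kidney (adjusted p = 0.594). Lhx1, a LIM homeobox gene of the early kidney and of cerebellar neurons, stood at 0.0050 in liver/kidney for the same comparison.

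In spretus liver/kidney 5 further members fell. Nkx6-2, a gene of oligodendrocytes, was at -0.83 ± 0.18 (adjusted p = 0.00539), but its arrays read 0.12, -1.64 and -0.54 where the musculus arrays ran from -0.02 to 0.47, and without spretus 02 the difference was -0.36 (adjusted p = 0.0714). Pou4f1 probe A, for a factor of sensory neurons, was at -0.44 ± 0.11 (adjusted p = 0.0143), with spots of -0.10 and -0.78 when read alone, and -0.31 without spretus 01 (adjusted p = 0.114). That call was also lost without spretus 02. Hoxa3 probe A was at -0.50 ± 0.14 (adjusted p = 0.0282) on 2 spretus values, since spretus 03 gave none. Without spretus 02 a single spretus value was left, taken to vary like the other groups, and the adjusted p was 0.351.

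Pax5, a factor of B lymphocytes, was at -0.29 ± 0.08 (adjusted p = 0.0293), and -0.21 without spretus 02 (adjusted p = 0.227). Nkx1-2 probe A was at -0.31 ± 0.10 (adjusted p = 0.0470), a call lost in 18 of 24 runs that left out 1 array, spretus 02 and cas 01 among them. The second probes of these genes gave -0.02 (Pou4f1 probe B), 0.12 (Hoxa3 probe B) and 0.04 (Nkx1-2 probe B), and none of them passed. With the sets as a random block, Hoxd10 was the only one of the 8 members that kept its call, and the share of all probes that did so is not given here. That fit cannot tell set and species apart against dom, mus and ssp, which share no set with spretus here. Hepatocyte markers were lower in spretus in the same tissue: 6 of 14 fell and 0 rose, with a list median of -0.40 against -0.0024 over all probes. The mean of that list ran from -0.44 to 0.02 over the spretus arrays and from 0.02 to 0.47 over the musculus arrays. Of 13 kidney tubule probes 1 rose and 1 fell, with a median of -0.04. The part of either list in the members' values was not tested.

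In brain, Nkx2-2, a factor that oligodendrocyte precursors need, was at 0.33 ± 0.09 in spretus (adjusted p = 0.0342), with arrays at 0.33, 0.08 and 0.34. Musculus arrays reached 0.17, so the groups overlapped, and without spretus 01 or spretus 03 the call was lost (adjusted p up to 0.199). Of the 7 tested oligodendrocyte marker probes 0 changed in spretus brain, with a median of 0.07. The other members named for a role in the brain did not pass. They ran from -0.23 ± 0.09 (Nkx6-2) to 0.31 ± 0.15 (Nkx2-1), with Pax6 at 0.01, Pou3f1 at 0.13, Pou3f3 at 0.09 and Dlx1 at 0.13. Lhx2, a LIM homeobox gene that selects cortical identity, was the member that rose in ssp brain, by 0.37 ± 0.07 (adjusted p = 0.0485). Its ssp arrays ran from 0.04 to 0.74 with a median of 0.40, and those of dom, mus and cas from -0.18 to 0.19, so only ssp 05 fell inside their range. In the same comparison 2 of 4 blood marker probes rose (Hbb-b2 0.60, Hba-a1 0.41), with a list median of 0.17 against -0.0026 over all probes, and no probe of the other marker lists changed. The mean of the blood list ran from 0.10 to 0.53 over the ssp arrays and from -0.11 to 0.25 over those of dom, mus and cas, and its part in the result was not tested. The Lhx2 call lay close to the threshold. It was lost in 18 of 21 runs that left out an array of the groups compared, such as cas 01 or dom 03, and in the 3 runs that left out a spretus array, which shares in the estimate of spread. Without mus 08, whose labels conflict, brain had 0 calls for ssp, 5 for spretus and 0 for mus minus dom. Within set 1 it was 0.35 ± 0.07 against dom (adjusted p = 0.138). The same set held 1 member call for mus minus dom (0.943%, against 0.902% of all probes), Hoxa9, which was lower in mus by 0.34 on the log2 scale (log2 difference -0.34, SE 0.07, adjusted p = 0.0402) and was chosen for mention after its values were seen.

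Mus and dom, whose arrays share set 1 in liver/kidney, differed in 3 members there, all higher in mus. Hoxa11os, transcribed opposite to Hoxa11, ran from -0.75 to 0.01 in dom (median -0.40) and from 0.18 to 0.84 in mus (median 0.72). The groups did not overlap, and the difference was 0.98 ± 0.18, a 1.97-fold ratio (adjusted p = 0.00502 by limma). Hoxa11, which directs kidney growth together with its paralogues, was at -0.03 (adjusted p = 0.998). Lhx6 probe A, for a LIM factor of cortical interneurons, ran from -0.45 to -0.15 in dom and from -0.03 to 0.46 in mus, again with no overlap. That difference was 0.56 ± 0.11 (adjusted p = 0.00843), while Lhx6 probe B had means of -0.0014 in dom and 0.04 in mus. Meis3, a partner of Hox proteins, ran from -0.39 to -0.05 in dom and from -0.02 to 0.57 in mus, a difference of 0.57 ± 0.13 (adjusted p = 0.0322).

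Both Hoxa11os and Lhx6 probe A kept their calls in 12 of 12 runs that left out 1 array of dom or mus, and Meis3 lost its call in 9 of 12, dom 01 and dom 03 among the arrays left out. Fitted on set 1 alone, the 3 calls stood (2.83%, against 0.838% of all probes), with adjusted p of 0.000713 for Hoxa11os, 0.00393 for Lhx6 probe A and 0.0350 for Meis3. That fit holds the same dom and mus arrays and the same differences. Only the estimate of spread is new, so it is not a separate check. The same fit called 2 members higher in ssp than in dom (1.89%, against 1.18%), Lhx6 probe A at 0.45 ± 0.10 and Hoxd11 at 0.41 ± 0.10. It called 2 members lower in ssp than in mus (1.89%, against 0.959%), Hoxa11os at -0.59 ± 0.14 and Pou5f2 at -0.56 ± 0.12. In brain and testis mus minus dom was 0.13 and 0.07 for Hoxa11os and did not pass.

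**Figure D5:**
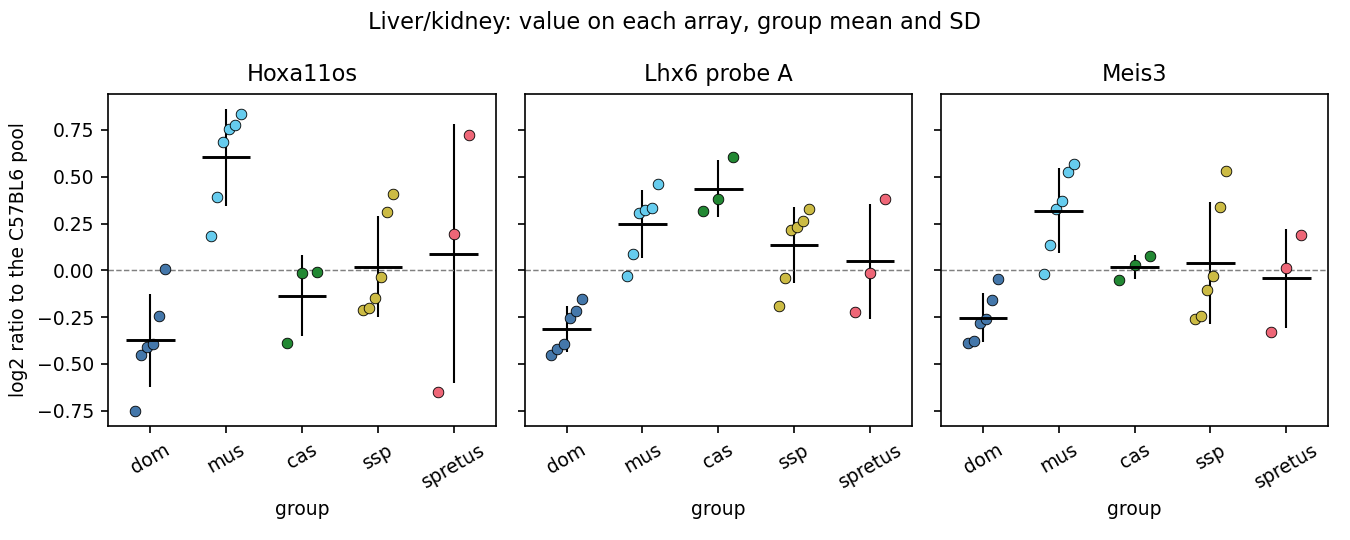
Hoxa11os, Lhx6 probe A and Meis3 on each liver/kidney array (points, log2 ratio to the C57BL6 pool) by group, with the group mean (horizontal line) and SD (vertical line). Every mus array lies above every dom array in all 3 panels, by mean differences of 0.98, 0.56 and 0.57.

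For cas in liver/kidney, Lhx1 was the second member called beside Hoxd10. Cas read 0.35, 0.47 and 1.05, above all dom and mus arrays, which reached 0.19. The difference of 0.61 ± 0.11 (adjusted p = 0.0107) was 0.40 without cas 03 (adjusted p = 0.0838), and with the sets as a random block its adjusted p was 1.00. Of the marker probes in this comparison, 2 of 14 for hepatocytes rose (Serpina1a 0.74, Serpina1b 1.32), as did 1 of 13 for kidney tubule (Umod 0.56), 1 of 4 for blood (Hba-a1 1.01) and 1 of 8 for neurons (Nefm 0.64), and 1 of 10 for lymphocytes fell (Igkc probe A -1.14). The medians were 0.11 for the hepatocyte list and 0.06 for the kidney tubule list, against 0.01 over all probes. The mean of the kidney tubule list ran from -0.05 to 0.04 over the cas arrays and from -0.27 to -0.05 over those of dom and mus. The part of these cells in the Lhx1 and Hoxd10 differences was not tested. Kidney factors that did not pass in any of the 4 group comparisons included Pax8, between -0.09 and -0.03, and Hoxa11, between -0.03 and 0.10. Pax2, which with Pax8 starts the kidney lineage, was at -0.46 for cas (adjusted p = 0.0923).

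Against the C57BL6 pool, the mean of the musculus groups differed for 38 of 106 members in liver/kidney (35.8%, against 31.4% of all probes), 9 of 106 in brain (8.49%, against 8.95%) and 12 of 107 in testis (11.2%, against 13.1%). The pool is 1 RNA sample, so these tests leave out its own spread. In liver/kidney 20 members were higher and 18 lower in the musculus groups. The largest were Hoxd10 (-0.64 ± 0.05, lower on 20 of 21 arrays), Hoxc9 (-0.53 ± 0.07, 20 of 21), Hoxb7 (-0.40 ± 0.08, 20 of 21), Dlx2 (-0.37 ± 0.09, 18 of 21), Pou2f3 (-0.34 ± 0.07, 19 of 21) and Six3 probe A (-0.25 ± 0.04, 18 of 21). On the other side were Pou5f1, a pluripotency factor (0.53 ± 0.07, higher on 21 of 21), Six6 (0.35 ± 0.05, 19 of 21), Pou5f2 (0.32 ± 0.05, 19 of 21), Hoxc10 (0.30 ± 0.07, 15 of 21), Hoxd4 (0.29 ± 0.05, 19 of 20) and Hoxb4 probe B (0.28 ± 0.05, 17 of 21). The other probes of these genes, Six3 probe B (-0.02) and Hoxb4 probe A (0.06), did not pass.

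Pou5f1 kept close values in every musculus group, with means of 0.52 in dom, 0.53 in mus, 0.65 in cas and 0.41 in ssp. Its spretus arrays spread from -0.44 to 1.21. Hoxb7 varied more, from -0.73 ± 0.37 (SD) in mus to -0.06 ± 0.08 in cas. With the sets as a random block Hoxd10 was the only liver/kidney member that kept its call against the pool. The share of all probes that kept theirs in that fit is not given here. In brain Pou4f1 probe B (-0.18 ± 0.03, adjusted p = 0.00101, lower on 20 of 21 arrays) and Hoxa3 probe B (-0.22 ± 0.05, adjusted p = 0.00520, 20 of 21) led the list. Others that passed there were Dlx4 (0.17), Hoxa13 (0.13), Lhx9 probe B (0.11), Lhx2 (0.11), Hoxc5 (-0.10), Hoxa6 (-0.09) and Nkx6-3 (-0.09). Pou4f1 probe A (0.07), Hoxa3 probe A (-0.05) and Lhx9 probe A (0.08) did not pass in brain. In testis Pou4f1 probe B was also lower than the pool (-0.16 ± 0.03, adjusted p = 0.00191, 19 of 21), and Hoxa2 (0.15 ± 0.03, adjusted p = 0.00479) and Hoxd1 (0.10 ± 0.02, adjusted p = 0.00859) were higher. The remaining 9 in testis were Pou3f2 probe A (0.28), Lhx6 probe A (0.22), Hoxa13 (0.14), Six5 (0.11), Nkx2-5 (0.11), Lhx6 probe B (0.08), Hoxb6 (0.07), Dlx6 (-0.14) and Pax9 (-0.15). Pou4f1 probe A (0.05) and Pou3f2 probe B (0.01) did not pass in testis.

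Over all members the spread between arrays of a group was like that of the array as a whole, with a median SD of 0.179 for brain, 0.156 for liver/kidney and 0.156 for testis against 0.173, 0.163 and 0.153 over all probes. The median size of the spretus difference was 0.11 in brain for members and all probes alike, 0.12 against 0.11 in liver/kidney and 0.08 against 0.11 in testis. By family, the 10 Hoxd probes held 2 of the 4 spretus calls in brain, 2 of the 8 in liver/kidney and 2 of the 5 in testis, where 3.95%, 7.49% and 9.42% of all probes were called. Hoxd10 gave 3 of these 6, and the calls of Hoxd13, of Hoxd8 and of Hoxd10 in testis were each lost when a single spretus array was left out. In the spretus comparison there were no calls for the Hoxc, Dlx, Six-family, Meis and Pbx probes in any tissue. Medians of the families in this comparison lay between -0.18 (Pbx, brain) and 0.17 (Nkx, brain). In the tests on simulated data 59% of probes shifted by 0.5 and 95% of those shifted by 1 were recovered for this comparison in brain, 66% and 94% in liver/kidney and 72% and 95% in testis. The simulated noise was independent between arrays and held no effect of the sets, so recovery under such an effect was not tested.

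Genes that work with the members or share their domain were read from lists. Of 70 other homeobox genes measured (73 probes in brain and liver/kidney, 74 in testis), Pitx3 (0.52) and En1 (0.56), both of midbrain dopamine neurons, rose in spretus brain and Cux2 probe A fell (-0.60). In spretus liver/kidney Gsx2 (0.54) and Cux1 probe B (0.68) rose, and Rhox5 (-0.59) and Cux2 probe A (-0.37) fell. In spretus testis Barx1 (0.71) and Irx1 (0.45) rose and Irx2 (-0.24) fell, and 0 of the list passed for mus minus dom, cas or ssp in any tissue. The list medians for spretus were 0.05, 0.02 and 0.03 in brain, liver/kidney and testis, against 0.02, -0.0024 and 0.01 over all probes.

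Among 30 Polycomb genes measured (35 probes) 0 changed in spretus brain, Phc1 rose (0.65) and Rnf2 fell (-0.47) in liver/kidney, and Pcgf6 (0.34) and Cbx8 (0.52) rose and Pcgf5 probe B fell (-0.31) in testis. Rnf2, the catalytic ubiquitin ligase of the complex, was also higher in mus than in dom in liver/kidney (0.76), and Scmh1 higher in cas (0.89). Of 13 Trithorax genes measured, 0 changed in any of the group comparisons. Among 25 partner proteins measured, Eya1, a cofactor of Six-family proteins in the kidney, rose in spretus liver/kidney by 1.51 ± 0.15, while the Six-family probes there ran from -0.11 to 0.57 and none passed. Ssbp3, which works with LIM homeobox proteins, was higher in mus than in dom (0.55) and lower in spretus (-0.56) in the same tissue, and Sox11 probe A fell in spretus (-0.43). In spretus testis Tle4 probe A rose (0.34) and Skil probe B (-0.60), Dach2 probe B (-0.26) and Sox11 probe C (-0.54) fell. Of 17 retinoic acid genes measured (26 probes), Lrat (0.30) rose and Dhrs3 (-0.35) fell in spretus brain, Rarg probes D (0.37) and E (0.30) rose in spretus testis, and 0 changed in liver/kidney.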

How the data were processed

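The deposited values are 2-channel ratios on a log scale, taken as log2 of channel 2 (mouse) over channel 1 (pool), per the labels' channels; the labels name dyes on 2 arrays only, in that arrangement. Values from -5.71 to 5.77 and array medians from -0.045 to 0.055 are those of ratios that the authors had centred near 0. How the slides were scanned, background-corrected and normalised is not given in the sources used here. Over all probes, the lowest correlation between any pair of arrays was -0.179 for brain, -0.0769 for liver/kidney and -0.293 for testis.

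Of 46128 spots, 22320 neighbouring pairs of equal probes were averaged, 1488 single spots dropped and 1 control probe averaged over 232 pairs. Probes had 1 gene symbol in 15801 cases, several in 294 and none here in 5994. The Entrez IDs of all 108 member probes matched RefSeq, with 0 symbol changes. Arrays were centred on their medians. limma 3.58.1 (R 4.3.3) was fitted per tissue with 1 coefficient per group, 24 arrays sharing the spread, and two-sided p-values adjusted by Benjamini-Hochberg over 20621 probes for brain, 20652 for liver/kidney and 20754 for testis. The fit was tested on simulated data. Contrasts weighted groups equally. Tables and plots used Python 3.11.15, pandas 2.3.3, numpy 2.4.6, scipy 1.17.1 and matplotlib 3.10.9.

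The members and all gene lists were chosen with earlier results of these data known. Genes named were all members called (the 6 largest each way where over 12 were), the smallest p for spretus per family and tissue where given, and members with a textbook role. Replicates are individual males, per the design text. The number of arrays limits the precision, and probe sequences were not used.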

Additional observations from a re-analysis of the deposited data

Results flagged for a closer look

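On 4 of 66 groups of 6 examined, 1 array stood apart from the rest by Dixon's test, which chance alone does in about 1 of 20 groups. For Hoxd10 in liver/kidney ssp 03 read -0.019, where the other ssp arrays ran from -0.985 to -0.656, and in testis mus 08 read 0.469, where the other mus arrays ran from -0.248 to 0.001. For Hoxd8 in liver/kidney ssp 05 read 0.228 (others -0.047 to 0.043), and for Hoxa3 probe A dom 05 read 0.422 (others -0.145 to 0.032).

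The spretus difference itself differed between tissues for 8 member probes, by limma over the 3 tissues. Between brain and liver/kidney 2.83% of members and 1.9% of all probes were called, and between brain and testis 2.83% and 2.96%. Between liver/kidney and testis these shares were 3.77% and 5.98%. For Hoxd10 the spretus difference was lower in brain than in liver/kidney by a log2 difference of -0.827 (adjusted p = 0.00986). It was higher in liver/kidney than in testis by 1.281 (adjusted p = 1.64e-06). For Msx3 it was lower in brain than in testis (-0.980, adjusted p = 4.73e-05) and lower in liver/kidney than in testis (-0.893, adjusted p = 0.000203). Brain exceeded liver/kidney for Hoxa3 probe A (0.614, adjusted p = 0.0429) and Nkx1-2 probe A (0.565, adjusted p = 0.0199). Brain exceeded testis for Nkx1-1 (0.552, adjusted p = 0.0125) and Hoxa3 probe B (0.689, adjusted p = 0.0151), neither of which passed within a tissue. Liver/kidney lay below testis for Nkx6-2 (-0.620, adjusted p = 0.0408) and Pou4f1 probe A (-0.665, adjusted p = 0.00252), whose liver/kidney calls were both lost without spretus 02, that of Pou4f1 probe A also without spretus 01. With quantile normalisation 3 of these 10 differences stayed called, both of Hoxd10 and that of Nkx6-2, and those of Msx3 had an adjusted p of 0.0624 and 0.137. In runs without 1 animal each, Hoxd10 between liver/kidney and testis and Msx3 between brain and testis were kept in 24 of 24, and Hoxa3 probe A was lost in 13 and Nkx6-2 in 8. Each of the other 6 was lost without 1 or 2 spretus animals: spretus 01 for Hoxd10 (brain and liver/kidney), Nkx1-1 and Pou4f1 probe A, spretus 02 for Msx3 (liver/kidney and testis), and spretus 02 or 03 for Nkx1-2 probe A and Hoxa3 probe B.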

How the results depend on the processing

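Counts of members called depended on single arrays and on the sets of arrays with shared empty spots, and the causes were not tested. The share of all probes called under each setting is not given here. A count that moved is therefore not a result about the family, since calls over all probes may have moved with it. No value of a named member changed sign past a threshold. Leaving out 1 array gave 3 to 7 calls for spretus in brain (7 without cas 03), 4 to 11 in liver/kidney (4 without spretus 02, 11 without spretus 03) and 4 to 8 in testis (8 without ssp 02 or spretus 01). It gave 2 to 3 for mus minus dom in liver/kidney and 0 to 0 in brain and testis. For cas it gave 0 to 4 in brain (4 without cas 02), 0 to 5 in liver/kidney (0 without cas 03, 5 without cas 01) and 0 to 0 in testis, and for ssp 0 to 4 in brain (4 without cas 02) and 0 to 0 elsewhere. Against the pool it gave 4 to 18 in brain (18 without cas 03, 4 without dom 01 or mus 04), 31 to 45 in liver/kidney and 6 to 13 in testis (6 without cas 01). Differences between tissues numbered 2 to 4 (brain and liver/kidney), 2 to 3 (brain and testis) and 3 to 6 (liver/kidney and testis).

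With quantile normalisation spretus had 7, 4 and 2 calls over brain, liver/kidney and testis, mus minus dom 1 and ssp 0 in brain, and the tissue differences 1, 0 and 2. With array weights spretus had 19 calls in brain and 5 in liver/kidney, and mus minus dom 1 in brain. Keeping only probes with a value on every array left 0 for ssp in brain. With the sets as a term there were 0 calls for ssp in brain, 17 against the pool in brain and 1 for spretus in testis; that fit could not be made for cas, ssp or spretus in liver/kidney. With the sets as a random block there were 0 calls for cas and 1 for spretus in liver/kidney, and against the pool 0 for brain, 1 for liver/kidney and 1 for testis. Animal numbers recur between groups, but same-numbered animals did not deviate together (27 pairs per tissue, median r of -0.0085, 0.0015 and -0.033, over 0.1 in 1, 2 and 7 pairs). With a replicate block there were 0 calls for ssp, 2 for spretus and 4 against the pool in brain, 0 for mus minus dom, 0 for cas and 4 for spretus in liver/kidney, and 3 for spretus and 6 against the pool in testis. Of 105 named values, 95 stayed on their side of the threshold with quantile normalisation, 90 with array weights, 84 with either spot alone, 80 with the replicate block, 63 with the sets as a random block and 102 with the values left uncentred, an alternative chosen after seeing the data. For spretus, 59% to 72% of simulated shifts of 0.5 were recovered at this number of arrays. No effect of the sets was simulated, and a smaller share of probes was shifted than was called in the data.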
